A study of Mus musculus with 5 samples.

Results

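The 10 genes followed here encode secreted or membrane-bound regulators of matrix breakdown: the matrix metalloproteinases Mmp2, Mmp3, Mmp9, Mmp13, Mmp14, Mmp19 and Mmp23, and their tissue inhibitors Timp1, Timp2 and Timp3. They were chosen by name, as 10 of the 31053 genes in the count matrices, and all 10 were found. Their RNA was counted in single cells of mouse liver as unique molecular identifiers (UMIs, 1 for each captured RNA molecule) and is given as UMIs per 1000000 UMIs of the same cells (CPM). All mice were males of the genotype Rosa26mTmG;Col1a1-Cre on the C57BL/6J background, in which Cre driven by a Col1a1 promoter switches a reporter to GFP, so Col1a1+ stands for a GFP gate and not for Col1a1 RNA. Disease libraries came from mice given diethyl nitrosamine (DEN), a liver carcinogen, at 10 mg/kg at 2 weeks of age. These mice were then fed a liquid Western alcohol diet (WAD, 3.5% ethanol by volume) for 5 months from 6 weeks of age. Control mice received saline and chow over the same period.

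Non-parenchymal liver cells were sorted by vitamin A (VitA) autofluorescence, carried by the retinoid droplets of hepatic stellate cells, and by GFP. The 5 libraries were VitA+Col1a1+ chow, VitA+Col1a1+ DEN+WAD, VitA-Col1a1+ chow, VitA-Col1a1+ DEN+WAD and a library labelled VitA-Col1a1- DEN+WAD, with 259, 10481, 668, 2729 and 9870 cells in that order. Each group was 1 library, and how many mice it holds was not given in the labels. There was no replicate, so no p-value is given, and every 95% interval (exact Poisson for a level, conditional binomial for a ratio, Clopper-Pearson for a share) covers counting error only. The libraries held 6145748 to 149936344 UMIs, with medians of 9105.5 to 24077 per cell, and 48 of 23959 distinct barcodes occurred in more than 1 library. The library labelled VitA-Col1a1- went against its label: it held 1062 CPM of Col1a1, beside 99.4 to 1834 CPM in the 4 Col1a1+ libraries, and 52.6% of its cells were mesenchymal by their RNA.

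Metalloproteinases are zinc enzymes made as inactive precursors that cut collagens, gelatin, proteoglycans and signalling proteins once their prodomain is removed. TIMPs bind the active site of these enzymes and block it, and TIMP2 also takes part in the activation of pro-MMP2 by MMP14 at the cell surface. In injured liver, stellate cells, portal fibroblasts and macrophages are known sources of both families, and the balance between them is a textbook feature of scar formation and its resolution.

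Mmp3 and Mmp13 lie in a cluster of 9 metalloproteinase genes on chromosome 9 (GRCm38, 9:7272514-7699585). Mmp13 lies at 9:7272514-7283331 and Mmp3 at 9:7445822-7455975, both on the plus strand, with no other annotated gene overlapping either. Their RNA was found in different cells here, as described with the cell classes, so the 250 bases before each annotated start are shown for a side-by-side reading. Capitals mark an AP-1 motif (TGANTCA, the site of Fos and Jun dimers, which reads as the same motif on both strands) and a TATA box (TATAAA, searched on both strands), and the motifs did not overlap. The sequences are from RefSeq on GRCm38.p6, plus strand, 5' to 3', at 9:7272264-7272513 for Mmp13 and 9:7445572-7445821 for Mmp3.

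Mmp13: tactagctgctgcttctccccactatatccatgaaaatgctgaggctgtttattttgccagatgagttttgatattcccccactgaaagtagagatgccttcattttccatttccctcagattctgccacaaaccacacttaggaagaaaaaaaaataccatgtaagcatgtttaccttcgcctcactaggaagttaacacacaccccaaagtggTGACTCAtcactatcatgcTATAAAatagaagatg
Mmp3: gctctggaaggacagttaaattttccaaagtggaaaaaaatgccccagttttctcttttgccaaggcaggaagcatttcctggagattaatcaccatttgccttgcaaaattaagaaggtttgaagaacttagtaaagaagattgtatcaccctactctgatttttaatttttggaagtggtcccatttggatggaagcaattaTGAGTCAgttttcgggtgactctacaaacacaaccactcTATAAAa

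Of the 10 members, 7 had an entry among the promoters, each spanning 250 bases before and 50 after a start. The AP-1 motif began 35 bases before the start of Mmp13 (TGACTCA) and 46 bases before that of Mmp3 (TGAGTCA), and the TATA box 16 and 7 bases before it. Among all 32851 promoters of this length, 7.81% held TGANTCA and 13.6% held TATAAA. Mmp14, Mmp23, Timp1, Timp2 and Timp3 held neither motif in this window. The Timp1 window held a related string, TGAGTAA, found in 2.68% of promoters, here 26 bases after the start and shown in capitals in a stretch of 30 bases at X:20870181-20870210.

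Timp1: cggtgggtggaTGAGTAAtgcgtccaggaa

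The Mmp3 and Mmp13 windows were also poor in G and C (40% and 43.7%), whereas those of the other 5 genes ran from 55.0% to 68.7%, with a median of 52.7% over all promoters. The TIMP genes and Mmp19 share their position with another gene: Timp1 (X:20870166-20874735) and Timp3 (10:86300372-86349506) overlap Syn1 and Syn3 on the opposite strand, Timp2 overlaps Cep295nl on its own strand, and Mmp19 overlaps Tmem198b and Gm47093 on the opposite strand. How the counting treated reads in these overlaps is not given in the sources used here.

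The gelatinase Mmp2 (MMP2 cuts denatured and basement membrane collagen) was read in every library. In the VitA+Col1a1+ gate it stood at 71.9 CPM under chow and 63.2 under DEN+WAD, in the VitA-Col1a1+ gate at 181 and 159 CPM, and in the library labelled VitA-Col1a1- at 80.9 CPM. Mmp14, the membrane-type enzyme that activates pro-MMP2, stood at 61.7, 73.5, 95.7, 97.3 and 107 CPM in the same order. Mmp23, a membrane-anchored family member, stood at 17.4, 45.0, 188, 142 and 60.1 CPM. Both Mmp2 and Mmp23 were higher in each VitA- Col1a1+ library than in either VitA+ library, and Mmp14 had the narrowest range of these. Intervals overlapped between 95.7 and 97.3 CPM for Mmp14, and between no neighbouring levels of Mmp2 or Mmp23.

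Timp1, the inducible soluble inhibitor, stood at 1.46, 79.0, 60.5, 57.1 and 82.2 CPM in that order, so that only VitA+Col1a1+ chow lay far from the other 4 libraries, and the intervals of 57.1 and 60.5 overlapped. Timp2 stood at 419, 463, 1217, 710 and 426 CPM. Timp3, which is held in the matrix and also inhibits the sheddase ADAM17, stood at 543, 778, 2241, 1202 and 1152 CPM. For Timp2 and Timp3 the VitA-Col1a1+ chow library was the highest of the 5 and VitA+Col1a1+ chow the lowest, and the neighbouring Timp2 levels of 419 and 426 had overlapping intervals.

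The low members split by library. Mmp3 (stromelysin-1, an enzyme of broad substrate range) stood at 0, 5.03, 69.1, 36.8 and 11.2 CPM in the order above. The 0 in VitA+Col1a1+ chow has an exact Poisson upper limit of 0.60 CPM, and 3 UMIs in that library would be 0.488 CPM. Mmp19, a secreted enzyme, stood at 0.976, 1.84, 23.1, 10.2 and 17.2 CPM. Mmp13, the principal interstitial collagenase of rodents, was read as 0, 22, 0, 2 and 2738 UMIs, which is 25.9 CPM in the library labelled VitA-Col1a1- and at most 0.147 elsewhere. Mmp9, the gelatinase of neutrophils and other leukocytes, was read as 0, 3, 1, 8 and 93 UMIs, at most 0.880 CPM. In the 4 Col1a1+ libraries Mmp9 and Mmp13 were too sparse for any comparison.

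**Figure D1:**
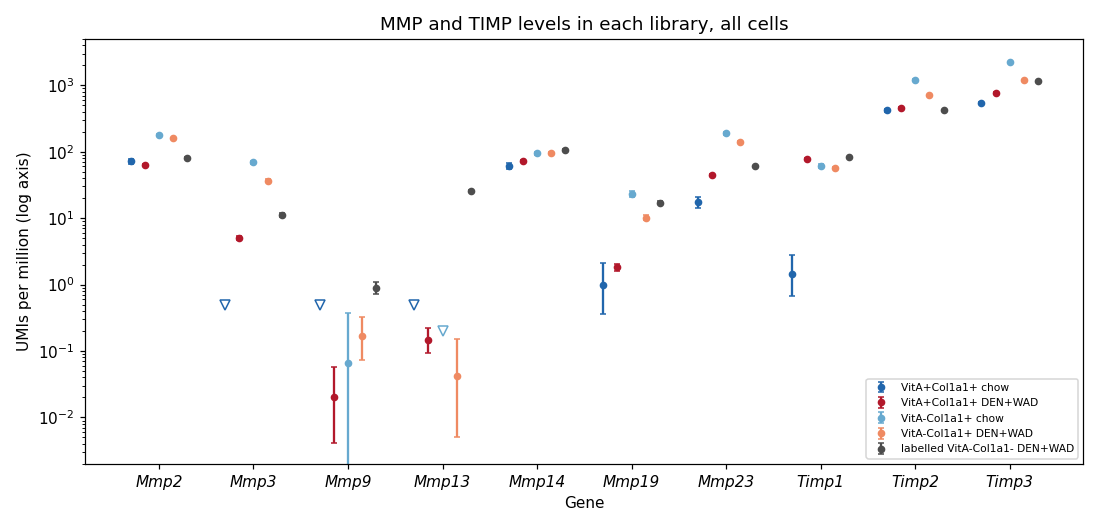
Level of each member in the 5 libraries, all cells, in CPM on a log axis; points are levels, bars are exact Poisson 95% intervals, and open triangles mark 0 UMIs, drawn at the value of 3 UMIs. Timp1 is at 1.46 CPM in VitA+Col1a1+ chow and at 57.1 to 82.2 CPM in the other 4 libraries, and Mmp13 reaches 25.9 CPM only in the library labelled VitA-Col1a1-.

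DEN+WAD was first compared with chow in the VitA+Col1a1+ gate, which asks how these genes differ in retinoid-storing stellate cells of DEN+WAD and control mice. Timp1 was 53.9 times higher in DEN+WAD (95% interval 28.4 to 118), from 11842 UMIs against 9. Mmp23 was 2.59 times higher (2.14 to 3.16). Timp3 was 1.43 times higher (1.38 to 1.48), Mmp14 1.19 times (1.08 to 1.32) and Timp2 1.11 times (1.06 to 1.15). Mmp2 had a ratio of 0.879 (0.799 to 0.970), a direction that turned under another scaling (1.0 with TMM) and after thinning cells to 2000 UMIs (1.07). The Mmp19 ratio of 1.89 (0.855 to 5.18) rested on 6 UMIs in chow and its interval held 1.

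No UMI of Mmp3 was read in chow. The DEN+WAD level was 10.3 times the value of 3 UMIs in the chow library, and the 95% interval of the ratio began at 8.36. Its 754 UMIs sat in 62 cells, and 2 of them, with 276 and 139 UMIs, held 55.0% of all. Without the 3 cells with the most Mmp3 the level was 1.45 CPM in place of 5.03.

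Of the 6 members with a mean of at least 5 CPM over the pair of libraries, 2 (Timp1 and Mmp23) exceeded chow by 2-fold or more and 0 lay below it by as much. Among all 9592 genes at that level, 0.970% were higher and 3.11% lower by that measure. Among mesenchymal cells alone the members' counts were again 2 and 0, beside 1.03% and 2.38% of 9482 genes. The median log2 ratio was 0.39 over the 6 members and -0.07 over all genes. TMM scaling moved log2 ratios by 0.19 in this gate. The chow library had 259 cells, and the immediate-early and heat-shock genes induced by cell isolation, all 10 of 10 of them read in at least 25% of cells, summed to 31432 CPM in chow and 27358 in DEN+WAD. Whether this had a part in the ratios was not tested. Portal fibroblast markers summed to 57.8 and 106 CPM, with 0 of 8 read in at least 25% of cells, and macrophage markers to 2.28 and 2.65 CPM.

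In the VitA-Col1a1+ gate most of the compared members were lower in DEN+WAD. Of these, Mmp3, Mmp23, Timp2 and Timp3 lay opposite to VitA+Col1a1+, while Mmp2 was lower in both gates. Mmp19 had a ratio of 0.442 (0.384 to 0.509), that is 2.26 times lower in DEN+WAD. Mmp3 had a ratio of 0.532 (0.493 to 0.575), Timp3 0.537 (0.529 to 0.544), Timp2 0.583 (0.573 to 0.594), Mmp23 0.756 (0.724 to 0.791) and Mmp2 0.882 (0.844 to 0.922). Mmp14 differed by less than its counting error (1.02, 0.958 to 1.08).

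Of the 8 members at a mean of at least 5 CPM, 0 exceeded chow by 2-fold or more and 1 (Mmp19) lay below it by as much. The shares over all 10241 genes at that level were 4.39% and 4.94%, and the median log2 ratio was -0.59 over the 8 members against -0.03 over all genes. In mesenchymal cells the count was again 1 lower and 0 higher, beside 4.81% and 2.70% of 9965 genes.

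Timp1 in this gate turned on 2 barcodes. Over all cells its ratio was 0.942 (0.874 to 1.02). In the chow library 1 barcode with 102759 UMIs in total held 248 Timp1 UMIs and another with 135909 held 233, together 53.0% of 908. Without these 2 the chow level was 28.9 CPM in place of 60.5, and with barcodes over 80000 UMIs left out of both libraries Timp1 was 1.97 times higher in DEN+WAD (57.1 against 28.9 CPM). Within mesenchymal cells, which hold the second of these barcodes but not the first, the ratio was 1.41 (1.29 to 1.54).

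The makeup of the gate also differed between the DEN+WAD and the chow library. In mesenchymal cells, stellate markers (9 of 9 read in at least 25% of cells in DEN+WAD, 8 of 9 in chow) summed to 11645 CPM in DEN+WAD and 4264 in chow, and portal fibroblast markers (6 and 7 of 8) to 2424 and 5488 CPM. Smooth muscle markers (3 of 4 in both) summed to 2580.4 CPM in DEN+WAD and 4387 in chow, with Myh11 (smooth muscle myosin) at 98.0 and 471 CPM and Acta2 (smooth muscle actin) at 742 and 1346 CPM. Pecam1-positive cells made up 16.0% of the DEN+WAD library and 5.69% of chow. Stress genes summed to 20117 CPM in DEN+WAD and 13948 in chow. The part of these markers in the ratios was not tested.

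**Figure D2:**
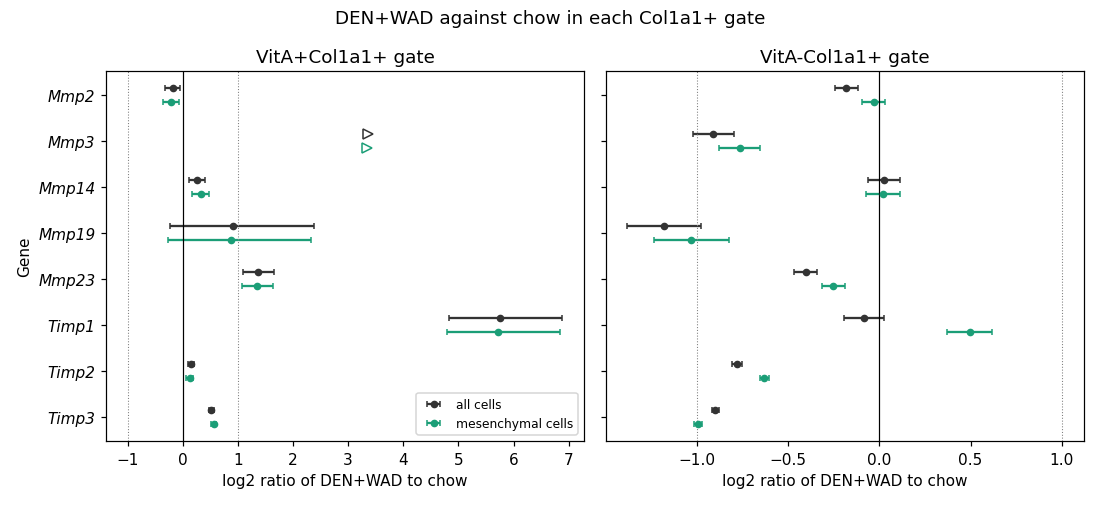
Log2 ratio of DEN+WAD to chow for 8 members in each Col1a1+ gate, for all cells and for mesenchymal cells, with conditional binomial 95% intervals; dotted lines mark 2-fold, triangles pointing right mark Mmp3, drawn against 3 UMIs in chow, and the horizontal axes of the panels differ in range. In VitA+Col1a1+ the ratio of Timp1 is 53.9, and in VitA-Col1a1+ Timp1 lies on different sides of 0 in all cells (ratio 0.942) and in mesenchymal cells (1.41).

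Mesenchymal cells were cells with at least 20 of 10000 UMIs from Dcn, Col3a1 and Colec11. They were divided by a UMI of Lrat, the retinol-esterifying enzyme of stellate cells, and by a UMI of Thy1 or Fbln2, markers of portal fibroblasts (PF). In VitA-Col1a1+ the Lrat+PF- subset held 290 cells in chow and 1597 in DEN+WAD, and the Lrat-PF+ subset 74 and 132. Reading depth enters this division, because a cell with few UMIs can miss a marker. The subsets were not alike in their markers between DEN+WAD and chow. In Lrat+PF- cells stellate markers summed to 14777.6 CPM in DEN+WAD and 5628 in chow, portal fibroblast markers to 1369 and 4810.3 CPM, and smooth muscle markers to 1985 and 3569.8 CPM. In Lrat-PF+ cells the same lists summed to 3587 and 2765, 6450.4 and 6268, and 3590.0 and 6205 CPM.

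In the Lrat+PF- subset the lower levels in DEN+WAD were at their strongest. Mmp3 stood at 12.5 CPM in DEN+WAD and 52.4 in chow, 4.20 times lower. Mmp19 stood at 7.16 and 21.5 CPM, 3.0 times lower, and Timp3 at 980.2 and 2369 CPM, 2.42 times lower. Timp2 stood at 692 and 1210.5 CPM, 1.75 times lower. Timp1 went the other way, at 56.2 and 24.4 CPM, a ratio of 2.30 (1.95 to 2.73).

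The Lrat-PF+ subset did not share this. Mmp3 stood at 218 CPM in DEN+WAD and 72.7 in chow, a ratio of 3.01 (2.47 to 3.69). A single cell held 326 of the 609 UMIs behind the first value, and without it the level was 102.4 CPM (90.8 to 115). The Lrat+PF- level of chow also leaned on 1 cell, with 119 of 339 UMIs, and was 34.2 CPM without it, against 11.2 CPM in DEN+WAD without its top cell. With the top cell left out on both sides, the ratio was 1.88 (1.47 to 2.41) in Lrat-PF+ cells and 0.329 (0.276 to 0.393) in Lrat+PF- cells. Timp2 had a ratio of 0.957 (0.907 to 1.01) and Mmp19 1.02 (0.674 to 1.56), both with 1 in their interval. Timp3 was 1.43 times lower, Mmp2 1.46 times higher and Mmp14 1.41 times higher. Timp1 had a ratio of 2.31 (1.69 to 3.21) on 51 UMIs in chow, close to that of the Lrat+PF- subset. In Lrat+PF+ cells the ratios lay between, at 0.811 for Mmp3, 0.786 for Mmp19, 0.623 for Timp3 and 0.723 for Timp2. Their Timp1 ratio, 1.29 (1.15 to 1.47), was below that of the other 3 subsets. However, in chow 1 barcode with 135909 UMIs in total held 233 of the 420 Timp1 UMIs of this subset. The ratio without that barcode was not computed, so this order of the subsets is not settled. The Lrat-PF- subset (232 cells in DEN+WAD, 61 in chow) ran against the lower Timp2 and Timp3 levels, with ratios of 1.13 (1.07 to 1.20) for Timp3 and 1.11 (1.04 to 1.18) for Timp2. Its Timp1 ratio was 2.06 (1.41 to 3.11), higher in DEN+WAD as in the other subsets. Mmp14 was 1.35 times lower there, and the intervals of Mmp2, Mmp3, Mmp19 and Mmp23 held 1. Its smooth muscle markers summed to 3172 CPM in DEN+WAD and 10230.3 in chow.

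Levels were also set between subsets of the same library. In DEN+WAD the Lrat-PF+ level over the Lrat+PF- level was 17.5 for Mmp3, 3.31 for Mmp19, 2.22 for Mmp2 and 1.81 for Timp2. The Mmp3 value was 9.11 (7.73 to 10.7) with the top cell of each subset left out. In chow the same quantities were 1.39 for Mmp3 (1.60 without the top cells), 1.08 for Mmp19, 1.37 for Mmp2 and 1.08 for Timp2. In the mesenchymal cells of the library labelled VitA-Col1a1- they were 12.1 for Mmp3 (9.46 without the top cells), 2.97 for Mmp19, 1.54 for Mmp2 and 1.35 for Timp2. The Timp1 level there was 4.68 times higher in Lrat-PF+ than in Lrat+PF- cells (456 against 97.5 CPM). In VitA-Col1a1+ the same Timp1 quantity was 1.28 (1.10 to 1.49) in DEN+WAD and 1.27 (0.911 to 1.76) in chow.

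**Figure D3:**
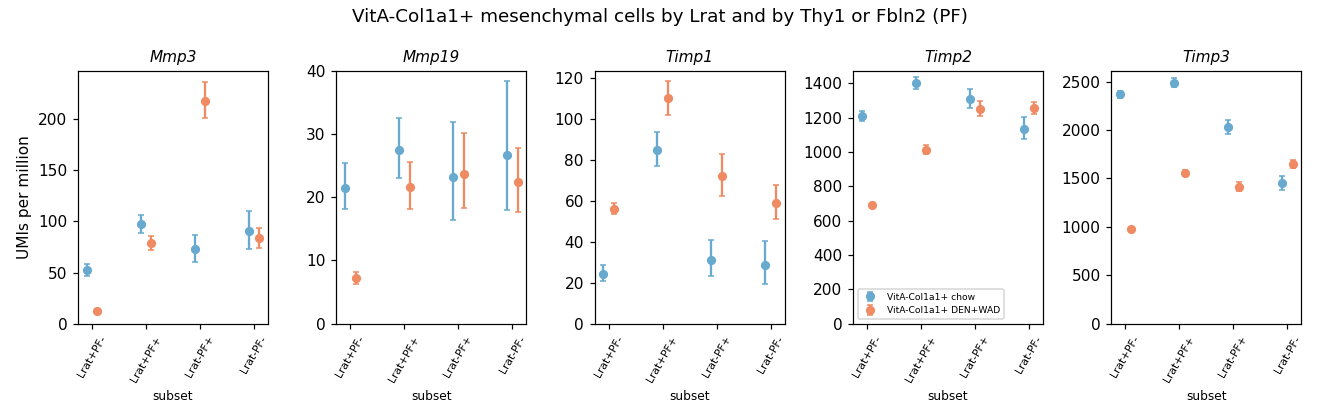
Levels of 5 members in the VitA-Col1a1+ mesenchymal subsets defined by a UMI of Lrat and by a UMI of Thy1 or Fbln2 (PF), in CPM on linear axes from 0, with exact Poisson 95% intervals. In Lrat+PF- cells Mmp3, Mmp19, Timp2 and Timp3 are lower in DEN+WAD than in chow and Timp1 is higher, and in Lrat-PF+ cells Mmp3 is at 218 CPM in DEN+WAD against 72.7 in chow.

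The VitA- gate was then set against the VitA+ gate within chow and within DEN+WAD, on the same 4 libraries. In chow, Timp1 was 41.3 times higher in VitA- (21.7 to 90.7), Mmp19 23.7 times (10.8 to 65.0), Mmp23 10.8 times (8.92 to 13.2), Timp3 4.13 times (3.98 to 4.28), Timp2 2.91 times (2.79 to 3.03), Mmp2 2.51 times (2.27 to 2.78) and Mmp14 1.55 times (1.38 to 1.74). Mmp3 stood at 142 times the value of 3 UMIs in VitA+ chow, with an interval that began at 115. The Timp1 ratio was 19.8 (10.3 to 43.5) without the 2 VitA- barcodes described above, and 30.8 in mesenchymal cells. In DEN+WAD the same ratios were 0.722 for Timp1, 5.55 for Mmp19, 3.16 for Mmp23, 1.55 for Timp3, 1.53 for Timp2, 2.52 for Mmp2, 1.32 for Mmp14 and 7.31 for Mmp3. Apart from Mmp2, each ratio was nearer to 1 in DEN+WAD than in chow. These ratios rest on the libraries already compared above, and their difference between DEN+WAD and chow was not tested.

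Cell classes could be compared in the library labelled VitA-Col1a1-, the only one with C1qa-positive cells. It held 5196 mesenchymal cells, 1876 Pecam1-positive cells (not mesenchymal, a UMI of the endothelial gene Pecam1 and none of C1qa) and 933 C1qa-positive cells (the reverse). In the C1qa-positive cells all 7 macrophage markers were read in at least 25% of cells, and hepatocyte markers summed to 10425 CPM, so these barcodes also carried hepatocyte RNA. Another 887 cells held both Pecam1 and C1qa, and 714 lay near the mesenchymal threshold, at 10 to 40 of 10000 UMIs. Doublets were not removed. By level, 7 of the 10 members were highest in mesenchymal cells, 3 (Mmp9, Mmp13 and Mmp19) in C1qa-positive cells and 0 in Pecam1-positive cells. Mmp14 was near equal in mesenchymal and Pecam1-positive cells (ratio 1.0, 0.953 to 1.05). The share of all genes highest in each class was not counted, so these counts only describe the members.

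Mmp2, Mmp3, Mmp23 and Timp1 were mesenchymal. Mmp2 stood at 143 CPM in mesenchymal, 1.07 in Pecam1-positive and 4.41 in C1qa-positive cells, and Mmp23 at 106, 1.87 and 0.998 CPM. Timp1 stood at 143, 7.40 and 2.74 CPM. Mmp3 stood at 20.0 CPM in mesenchymal cells, and 0 and 1 of its UMIs were read in the other classes. With each cell thinned to 2000 UMIs, a UMI of Mmp2 was read in 22.5% of mesenchymal, 0.330% of Pecam1-positive and 0.873% of C1qa-positive cells, where the unthinned shares were 49.8%, 0.853% and 5.04%. No share of free RNA was measured, and the Mmp2 level was 4.13 times higher in C1qa-positive than in Pecam1-positive cells (2.33 to 7.74).

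Mmp13 and Mmp19 were highest in C1qa-positive cells. Mmp13 stood at 129 CPM there, 2.65 in mesenchymal and 0.667 in Pecam1-positive cells, a ratio of 48.6 (41.2 to 57.7) to mesenchymal cells. Thinned to 2000 UMIs, Mmp13 was read in 12.4% of C1qa-positive cells (10.0 to 15.1) and 0.356% of mesenchymal cells. Cells with a C1qa UMI that were neither mesenchymal nor rich in neutrophil markers (1812 cells, those with Pecam1 included) held 93.6% of the 2738 Mmp13 UMIs of the library. Mmp13 stood at 106 CPM in the cells with a UMI of Clec4f, the Kupffer cell lectin (871 cells), and at 97.2 CPM in the 949 without. The median depth of these sets was 16743 and 8257 UMIs, and cells with Pecam1 were not left out. Timp3 stood at 93.2 and 509 CPM in them, and the part of depth or of other cells in the Mmp13 levels was not tested. Mmp19 stood at 44.6 CPM in C1qa-positive, 16.7 in mesenchymal and 0.867 in Pecam1-positive cells.

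Mmp9 was rare in every class, with 93 UMIs in all. Of these, 23 were in 24 cells rich in neutrophil markers (at least 20 of 10000 UMIs), where the level was 271 CPM (172 to 407), and 44 were in the cells with C1qa and Clec4f, at 3.02 CPM, sets that can share cells. In mesenchymal cells it stood at 0.0848 CPM.

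Mmp14 and Timp3 were shared by mesenchymal and Pecam1-positive cells. Mmp14 stood at 131 CPM in both, a ratio of 1.0 (0.953 to 1.05), and at 45.9 CPM in C1qa-positive cells. Timp3 stood at 1572 CPM in mesenchymal, 1449 in Pecam1-positive and 22.9 in C1qa-positive cells. The Pecam1-positive cells of the DEN+WAD Col1a1+ libraries held Timp3 at like levels, 1639.9 CPM in VitA+ and 1584 CPM in VitA-. Timp2 stood at 682 CPM in mesenchymal, 24.9 in Pecam1-positive and 194 in C1qa-positive cells, so its share of all Timp UMIs was 28.4% in mesenchymal, 1.68% in Pecam1-positive and 88.3% in C1qa-positive cells. Timp3 made up 65.6%, 97.8% and 10.4% of Timp UMIs in the same classes, and Timp1 5.97%, 0.500% and 1.25%.

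**Figure D4:**
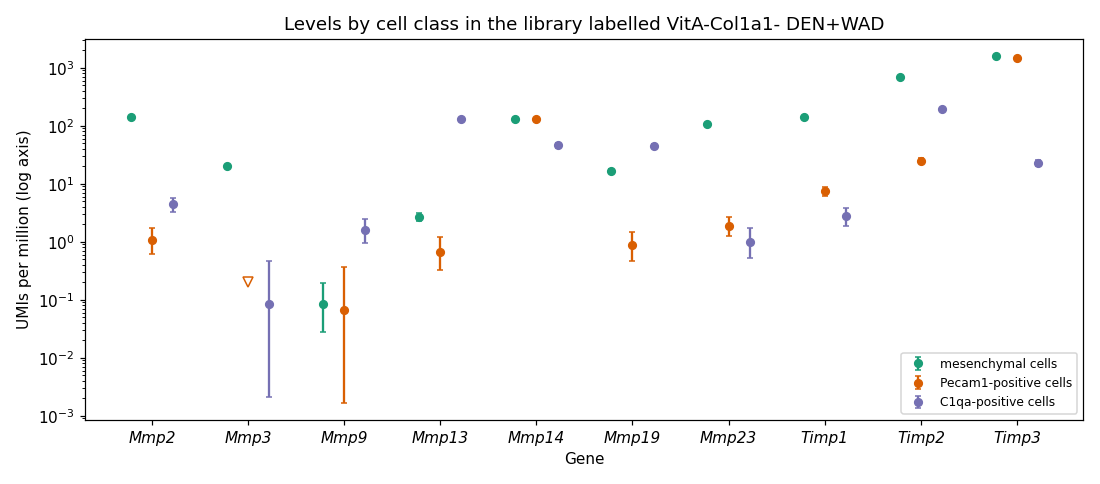
Level of each member by cell class in the library labelled VitA-Col1a1- DEN+WAD, in CPM on a log axis, with exact Poisson 95% intervals and an open triangle for 0 UMIs at the value of 3 UMIs. Mmp13 is at 129 CPM in C1qa-positive cells and 2.65 in mesenchymal cells, Mmp14 is at 131 CPM in both mesenchymal and Pecam1-positive cells, and Timp3 is at 22.9 CPM in C1qa-positive cells.

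The members differed in how many cells carried them. In VitA+Col1a1+ DEN+WAD (10481 cells), 50% of UMIs sat in 2490 cells for Timp2, 1750 for Timp3, 1632 for Mmp14, 1002 for Mmp2, 640 for Mmp23, 90 for Timp1, 61 for Mmp19 and 2 for Mmp3. The 1% of cells with the most Timp1 (105 cells) held 53.3% of its UMIs, against 5.19% for the same number of cells and Timp2. Of the 2729 VitA-Col1a1+ cells of DEN+WAD, 38 held 50% of Timp1 UMIs and 8 held 50% of Mmp3 UMIs. In the library labelled VitA-Col1a1- (9870 cells) the same share sat in 163 cells for Timp1, 48 for Mmp13 and 14 for Mmp3. Thus the Timp1 and Mmp3 UMIs of these libraries were held by fewer cells than those of Timp2 and Timp3. Timp1 was less concentrated than Mmp3. In VitA+Col1a1+ DEN+WAD it still stood at 38.0 CPM in the mesenchymal cells outside those 105, against 1.52 CPM in the mesenchymal cells of VitA+Col1a1+ chow. No Mmp3 UMI was left there without the 1% of cells with the most Mmp3. In the same VitA+ library the Timp1 level was 69.4 CPM in 10015 Lrat+PF- cells and 437 CPM in 129 Lrat+PF+ cells (median depth 13304 and 22132 UMIs). It was 1200 CPM (1083 to 1326) in 111 Lrat-PF- cells of a median depth of 834 UMIs, where 1 cell held 298 of the 382 Timp1 UMIs. With mesenchymal cells thinned to 2000 UMIs, a UMI of Mmp23 was read in 13.4% of the 606 cells with a Timp1 UMI and 6.57% of the 9502 without.

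**Figure D5:**
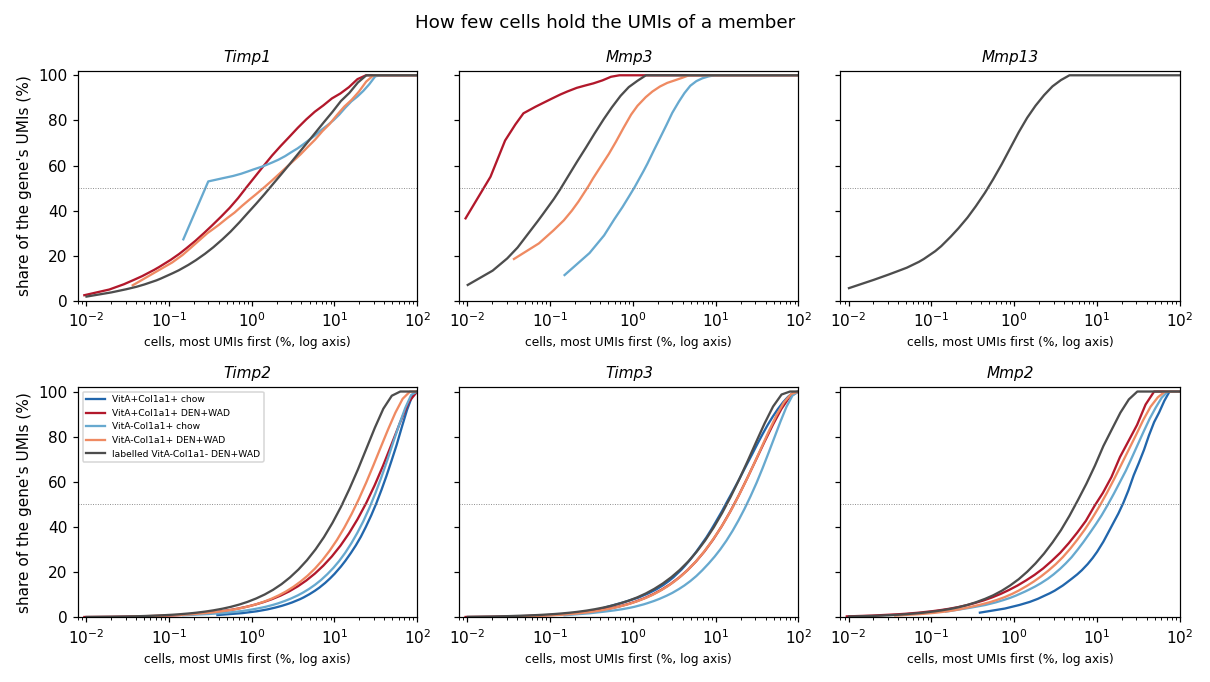
Cumulative share of a gene's UMIs (linear axis, %) against the share of cells counted from the cell with the most UMIs (log axis, %), for 6 members and each library with at least 30 UMIs of the gene; the dotted line marks 50%. Of the VitA+Col1a1+ cells of DEN+WAD, 2 hold over 50% of Mmp3 UMIs and 90 hold 50% of Timp1 UMIs, and 2 cells of VitA-Col1a1+ chow hold 53.0% of Timp1 UMIs.

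The other genes of pericellular proteolysis were read from a list of 50, with 49 found: further metalloproteinases, the plasminogen activators and their inhibitors, ADAM and ADAMTS proteases, cathepsins and collagen-processing enzymes. In VitA+Col1a1+, 29 had a mean of at least 5 CPM, of which 3 exceeded chow by 2-fold or more and 0 lay below it by as much, beside 0.970% and 3.11% of all genes, with a median log2 ratio of -0.20. The 3 were Serpine2, an inhibitor of plasminogen activators (17.0 against 3.09 CPM, a ratio of 5.50, 3.52 to 9.16), Plat, the tissue plasminogen activator (46.7 against 13.3, 3.50), and Adamts4, an aggrecanase (16.4 against 5.04, 3.26). Adam19, a membrane protease, had the largest ratio in the other direction (8.78 against 16.9 CPM, 0.519), followed by Reck, a membrane-anchored metalloproteinase inhibitor named after its values were seen (38.3 against 72.7 CPM, 0.527).

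In VitA-Col1a1+, 31 of the list were at that level, of which 1 exceeded chow by 2-fold or more and 1 lay below it by as much, shares near the 4.39% and 4.94% of all genes, with a median log2 ratio of -0.23. In mesenchymal cells the counts were 1 and 0, with Adamts15 at 1.93 times lower. Plaur, the urokinase receptor, stood at 15.2 CPM in DEN+WAD and 5.47 in chow, a ratio of 2.78 (2.21 to 3.53). The proteoglycan-cutting proteases Adamts15 and Adamts5 stood at 6.57 against 13.9 CPM (2.12 times lower) and 284 against 555 CPM (1.95 times lower). Mmp17, a membrane-type metalloproteinase, stood at 16.1 against 25.4 CPM (0.633).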

How the data were processed

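The authors made 10x Genomics 3' libraries of sorted cells at a target of 10000 cells each, and the labels name both v3.1 and v2 of the kit. The deposited values are raw UMI counts per gene and barcode (31053 genes, mm10), made by the authors with Cell Ranger, given as 3.1.0 in the submitters' processing notes and in the headers of 4 libraries, and as 6.1.2 in that of the library labelled VitA-Col1a1-. Every deposited barcode was used, with no doublet caller. Groups came from the labels, 1 library each.

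A level is a gene's counts over a set of cells, per 1000000 UMIs of those cells. A level of 0 was set to 3 UMIs for a fold, with the lower 95% limit beside it. Genes with a mean of at least 5 CPM over both libraries were counted as past 2-fold. Classes were mesenchymal (at least 20 of 10000 UMIs from Dcn, Col3a1 and Colec11), Pecam1-positive and C1qa-positive. Classes under 50 cells and subsets under 20 cells gave no level. Shares of cells were thinned to 2000 UMIs. Named genes were all members, the 4 listed proteolysis genes with the largest fold in each gate at 10 or more CPM, and the 3 genes most alike each member. Members and lists were chosen with earlier results of these data known. Positions were read from GENCODE M21 on GRCm38, where 30934 of 31053 gene IDs were found, and promoters from RefSeq.

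Analyses were run in Python 3.11.15 (numpy 2.4.6, scipy 1.17.1, pandas 2.3.3), with TMM factors from edgeR 4.0.16 in R 4.3.3. The counting of genes past 2-fold was tested on simulated data. Alternatives were TMM scaling, a mean over cells, filters on barcodes, mesenchymal cells with or without Lrat, leaving out the 1% of cells with the most UMIs of a gene, thinning, and other class thresholds. Chosen after seeing the data were leaving out barcodes over 80000 UMIs keeping mesenchymal cells with Lrat and without Thy1 or Fbln2, and leaving out the 1 or 2 cells with the most Mmp3 or Timp1.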

Additional observations from a re-analysis of the deposited data

Results flagged for a closer look

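Mmp3, Mmp23, Timp2 and Timp3 had ratios of DEN+WAD to chow on opposite sides of 1 in the VitA+Col1a1+ and VitA-Col1a1+ gates, with intervals that left out 1. With 1 library per group the difference between gates was not tested. How many of all genes lay so was not counted, so the pattern is not shown to be particular to these members. For Mmp3, which had 0 UMIs in VitA+ chow, the VitA+ level was 10.3 times the value of 3 UMIs there (95% interval from 8.36) and the VitA- ratio 0.532, and 2 cells held 55.0% of the VitA+ UMIs, with no UMI left without the 1% of cells that held the most. The ratios in VitA+ and VitA- were 2.59 and 0.756 for Mmp23, 1.11 and 0.583 for Timp2, and 1.43 and 0.537 for Timp3.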

How the results depend on the processing

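Of 157 recomputed ratios of members, 112 moved by less than their counting interval, 43 moved further and 2 changed direction. A change of direction was counted only where the reported interval left out 1. Both were for Mmp2 in VitA+Col1a1+, whose log2 ratio of -0.19 became 0.0030 with TMM scaling and 0.094 with cells thinned to 2000 UMIs. TMM moved log2 ratios by 0.19 in VitA+Col1a1+ and 0.08 in VitA-Col1a1+. In VitA-Col1a1+ the count of members at least 2-fold lower, 1 as reported, was 2 with a mean over cells, 2 without the 1% of cells with the most UMIs of the gene, 2 with thinning, 3 in mesenchymal cells with Lrat and 3 in those without Thy1 or Fbln2 as well, where 1 member (Timp1) was at least 2-fold higher in place of 0. There the subset of cells changed by construction, and for the others the cause was not tested. Timp1 in VitA-Col1a1+, whose reported interval held 1, lay above 1 under 7 alternatives, at 1.21 to 2.30, against 0.942 as reported. The count of members highest in Pecam1-positive cells, 0 as reported, was 1 when 3 UMIs of a marker were required and 1 with a mesenchymal threshold of 10. Of 120 recomputed class levels, 91 moved by less than their interval. For Mmp3 in VitA+Col1a1+ leaving out the top 1% of cells, and for Mmp3 and Mmp19 there thinning, gave no value, since the level fell under the floor of the chow library. No paired analysis was possible because each group is 1 library. Low counts limit what can be said of Mmp9 and Mmp13 in the Col1a1+ libraries, and 259 chow cells limit the VitA+ ratios.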

Other observations

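The cells richest in Timp1 were described by their other genes, chosen after the values were seen. In VitA+Col1a1+ DEN+WAD the 105 cells with the most Timp1, all mesenchymal and 97.1% with a Lrat UMI, had a median of 26543 UMIs against 13264 in the other mesenchymal cells. They were led by Col15a1 (179.6 CPM against 5.83 in the other mesenchymal cells), the chemokine Cxcl9 (513 against 30.9), Dclk1 (189 against 9.55), the cytokine Il11 (83.9 against 1.82) and Tnc (321 against 21.4). Ccl11 (102.1 against 5.65), Acta2 (967 against 91.7), Lox (97.7 against 5.30) and Col1a1 (2550.2 against 262) were also among the 10 leading genes. Mmp14 stood at 164 against 71.1 CPM and Mmp23 at 106 against 44.4, while Lrat stood at 718 against 1533, Mmp2 at 70.8 against 63.9 and Timp3 at 612 against 773. In VitA-Col1a1+ DEN+WAD the 28 cells with the most Timp1 were led by Ccl5 (343 against 1.59 CPM) and Saa3 (195 against 0.530), and in the library labelled VitA-Col1a1- the 99 such cells were led by Saa3 (106 against 1.67) and Spp1 (1081 against 113).

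The chromosome 9 cluster divided by cell class in the library labelled VitA-Col1a1-. Mmp12, the macrophage elastase, stood at 1160.2 CPM in C1qa-positive, 23.6 in mesenchymal and 6.73 in Pecam1-positive cells, Mmp27 at 45.0, 1.46 and 0.200 CPM, and Mmp8 at 4.41, 0.187 and 0 CPM. Like Mmp13, these were highest in C1qa-positive cells, whereas Mmp3 was highest in mesenchymal cells and Mmp10, with 16 UMIs there, stood at 0.271 CPM. Mmp1b and Mmp20 had 0 UMIs in each class. Mmp7 had 108 UMIs in the library but only 3 in mesenchymal, 3 in Pecam1-positive and 8 in C1qa-positive cells, so most lay outside these classes. Among cells with a C1qa UMI, Mmp13 stood at 179 CPM in the 683 with an Mmp12 UMI and at 12.3 CPM in the 1137 without, and Mmp19 at 49.9 and 8.10 CPM. The median depth of these cells was 19448 and 7857 UMIs, and its part in the contrast was not tested.

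Genes with the pattern most like each member were ranked by Pearson correlation of log2(CPM + 1) over 9 library and class groups, among 8765 genes. The groups share libraries, so the values only describe. Mmp13 was nearest to B430306N03Rik, Siglece and Atp6v0d2, Mmp23 to Loxl1, Col1a1 and Htra3, Mmp2 to Kdelr3, Cercam and Epha3, and Mmp3 to Ak1, Vgll3 and Dpt. Timp1 had the weakest leading match of the 10 members (Tslp, 0.963), followed by Cdkn2c and Ccm2. Timp2 was nearest to Sdc2, Irs2 and Ahnak2, Timp3 to Tshz3, Kctd17 and Itga8, Mmp14 to Kdm1a, Tm4sf1 and Brd1, Mmp19 to Ifi205, Tgfbr1 and Adcy7, and Mmp9 to Fam234a, Rilpl2 and H2-M2.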
